A study of Arabidopsis thaliana with 6 samples.

Results

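The genes described here are 3 CBF transcription factors of the cold response, the zinc-finger regulator ZAT12, and 6 genes that the cold response switches on: COR15A, COR15B, KIN1, COR47, RD29A and GolS3. They were picked out by a list of Arabidopsis locus codes, drawn up with earlier results of these data known, and make up 10 of the 33602 gene models counted. Of the 10, 9 passed the filter on low counts and were tested, and CBF1 did not pass. RNA was read as paired ends from whole Arabidopsis thaliana seedlings at Boyes stage 1.02, kept in vitro under long days at 21 °C. Every seedling, treated or not, carried 35S::CUC2-GR, a transgene that drives the boundary transcription factor CUC2 from a viral promoter as a fusion to the steroid-binding part of the glucocorticoid receptor. The 3 Dex libraries came from seedlings in 10 mL of liquid medium given 10 µL of dexamethasone for 6 h, and the 3 no_Dex libraries from seedlings labelled as having no treatment. The labels give no cold treatment, mock treatment, dexamethasone concentration, hour of harvest or line without the transgene. Effects of CUC2-GR, of dexamethasone itself, of handling and of any difference in the hour of harvest thus cannot be told apart.

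CBF1, CBF2 and CBF3 are AP2/ERF proteins that bind a short DNA element called CRT/DRE, whose core reads CCGAC. In the cold their transcripts appear within minutes to hours, and the proteins then raise the COR genes. Many of these encode hydrophilic proteins that protect chloroplast and other membranes and proteins from freezing and drying. ZAT12 is a stress-induced C2H2 zinc-finger protein that acts beside the CBF proteins. At mild temperature the CBF genes are held low and are gated by the circadian clock, and several COR genes also answer to drought and abscisic acid.

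The CRT/DRE core was looked up in the 500 bases before the start codon of each gene, on both strands, because it is the element through which the 6 effector genes are known to be driven. Each of the 6 held at least 1 match, and CBF1, CBF2, CBF3 and ZAT12 held none. Of 27443 protein-coding genes, 23.3% held a match and 4.42% held 2 or more, so a match is common. The matches are given 5′ to 3′ on the strand of the gene, from the TAIR10.1 genome, with the core in capitals (GTCGG where it lies on the other strand) and 10 bases on either side. RD29A held 4, at chr5:21240567-21240591, chr5:21240617-21240641, chr5:21240674-21240698 and chr5:21240711-21240735 (plus strand). COR15A held 2, at chr2:17712395-17712419 and chr2:17712218-17712242 (minus strand). COR15B held 1, at chr2:17710124-17710148 (minus strand), as did KIN1, at chr5:5209804-5209828 (plus strand), and COR47, at chr1:7085918-7085942 (minus strand). GolS3 held 2 in overlapping stretches, of which the one at chr1:3019413-3019437 (plus strand) is shown.
RD29A site a: tagacatggaCCGACtactaataat
RD29A site b: aaatatcataCCGACatcagtttga
RD29A site c: agatatactaCCGACatgagttcca
RD29A site d: aaagatcaagCCGACacagacacgc
COR15A site a: aacttgttggCCGACatacatttgt
COR15A site b: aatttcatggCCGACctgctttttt
COR15B: aacttgatggCCGACctcttttttc
KIN1: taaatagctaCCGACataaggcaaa
COR47: tattcatctaCCGACttcaagaaat
GolS3: taaatagtagGTCGGccatgggtcg
By the TAIR10.1 annotation, RD29A sites a to c, COR15A site a and the GolS3 site lie upstream of the gene. The stretch shown for RD29A site d overlaps the annotated start of the gene, and its core lies inside the gene. The other sites lie inside the annotated gene, before its start codon. A match is a string of letters, not a measured binding site.

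Elements of 2 classes of CBF regulator were looked up in the same windows. The letters AAATATCT are a short form of the evening element, which clock proteins of the CCA1 and RVE family bind. They are called evening element here, and lay before CBF2, CBF3, ZAT12, COR15A, COR15B and KIN1, against 8.26% of all genes. The letters CCGCGT, a form of the CGCG box that CAMTA calmodulin-binding activators recognise, lay before CBF2, ZAT12 and COR47, against 3.47% of all genes. The CBF2 matches were 200 and 224 bases before the start codon, the evening element at chr4:13016269-13016296 and the CGCG box at chr4:13016295-13016320 (minus strand). They are shown with the CBF3 evening element, at chr4:13019175-13019202 (minus strand), because these are the CBF genes with the most read pairs. Both CBF2 matches lie upstream of the annotated gene, and the CBF3 match lies inside it, before the start codon. CBF1 held no match to any of the 3 motifs in this window.
CBF2 evening element: acaaatatccAAATATCTtccggccaat
CBF2 CGCG box: gacagaaactCCGCGTtcgaccccac
CBF3 evening element: tttgcctctaAAATATCTtccgccatta

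**Figure D1:**
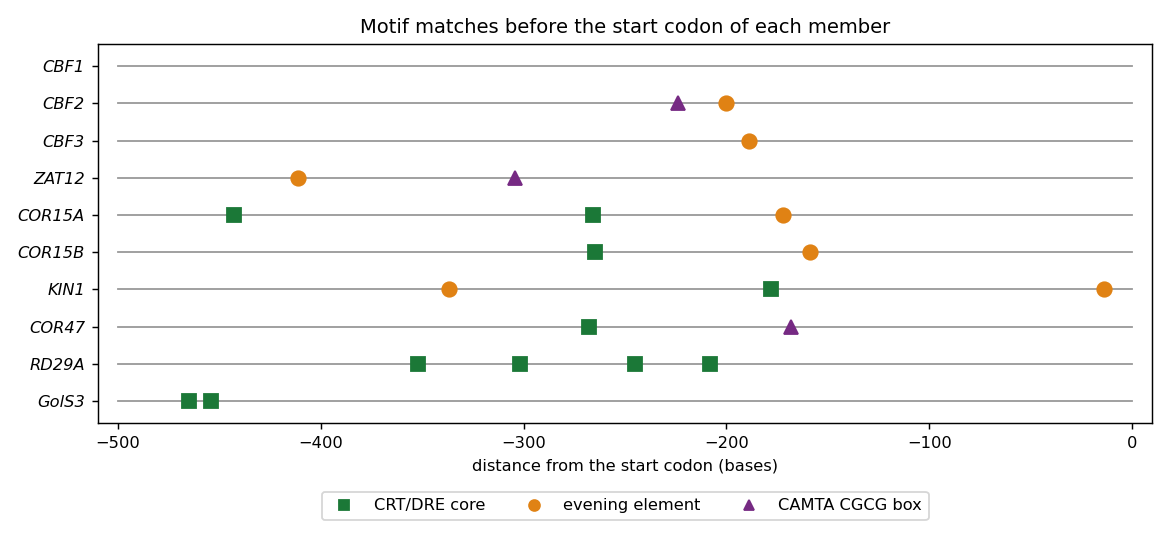
Positions of the 3 motifs in the 500 bases before the start codon of each member; the horizontal axis is the distance from the start codon in bases, and each symbol is the first base of 1 match on either strand. CRT/DRE cores (squares) lie before the 6 effector genes, and RD29A holds 4 of them.

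The libraries held 26161582 to 29481253 counted read pairs. CUC2, whose count sums the transgene and the endogenous gene, stood at 863 ± 9.27 CPM in Dex libraries and 853 ± 32.4 CPM in no_Dex libraries (SD, n = 3 each). CPM are read pairs per 1000000 pairs of library size after TMM scaling (trimmed mean of M values), which evens out differences in composition. Of 3 genes often used as references, ACT2 and PP2AA3 were not called (log2 fold changes of -0.18 and 0.079) and UBQ10 was called higher (0.32), a call lost without Dex replicate 3, no_Dex replicate 2 or no_Dex replicate 3 (adjusted p of 0.0713 to 0.0902 by edgeR). Dex replicate 1 stood apart, with correlations of log2 CPM across genes of 0.987 and 0.988 to the other Dex libraries, where no_Dex libraries reached 0.994 or 0.995 among themselves. Dex replicate 3 held 1169 pairs from 3 seed markers (the storage protein genes CRA1 and SESA3 and the oleosin gene OLEO1), and Dex replicates 1 and 2 held 19 and 58 pairs. The no_Dex libraries held 1, 2 and 5 such pairs. Summed levels of 4 green leaf markers were 6987 to 10818 CPM in Dex libraries and 11994 to 13696 CPM in no_Dex libraries. Those of 4 root markers were 128.3 to 159 CPM in Dex libraries and 172 to 189 CPM in no_Dex libraries, so both organs were represented. The chlorophyll-binding protein gene LHCB1.3 fell by 0.71 and the root hair expansin gene EXPA7 fell by 0.48 on the log2 scale; both calls were lost without any single no_Dex library, and that of EXPA7 also without Dex replicate 2. In the unblocked edgeR fit of all 6 libraries 1 of the 4 root markers was lower. Blocked on replicate number and by DESeq2 it was 3, by limma-voom 2, and with any 1 no_Dex library left out 0. CRA1, the 1 seed marker tested, was not called in that unblocked fit or by limma-voom. It was called higher with the block, by DESeq2, with single reads and with any 1 Dex library left out. With any 1 no_Dex library left out it was not called. The part of these differences in the results below was not tested beyond the values given without single libraries.

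Of the 9 tested members 2 fell, CBF2 and RD29A, and 7 were not called, by edgeR's quasi-likelihood test with a Benjamini-Hochberg adjusted p under 0.05 over all 21344 tested genes. Of all tested genes 14.4% were called, 5.99% higher and 8.4% lower. No member was called higher by edgeR, DESeq2 or limma-voom, and none was higher at an unadjusted p under 0.05. The median log2 fold change of the 9 was -0.45, beside 0.01 over all tested genes. That median is a description only, since CBF3 reached the filter level of 0.351 CPM in 3 no_Dex libraries and 1 Dex library. In 4 of the 9, CBF2, CBF3, COR47 and RD29A, the Dex and no_Dex values did not overlap, where 36.3% of all tested genes had no overlap. With CBF3 among them, and COR47 overlapping before TMM scaling, this count is a description only as well. Without Dex replicate 3 the count of members lower was 4, and without no_Dex replicate 2 it was 1. The 4 lower without Dex replicate 3 include CBF1 and CBF3. These reached the filter level in neither of the remaining Dex libraries, so that count too is a description only. In whole seedlings, fewer cells that express a gene and less RNA per cell cannot be told apart.

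**Figure D2:**
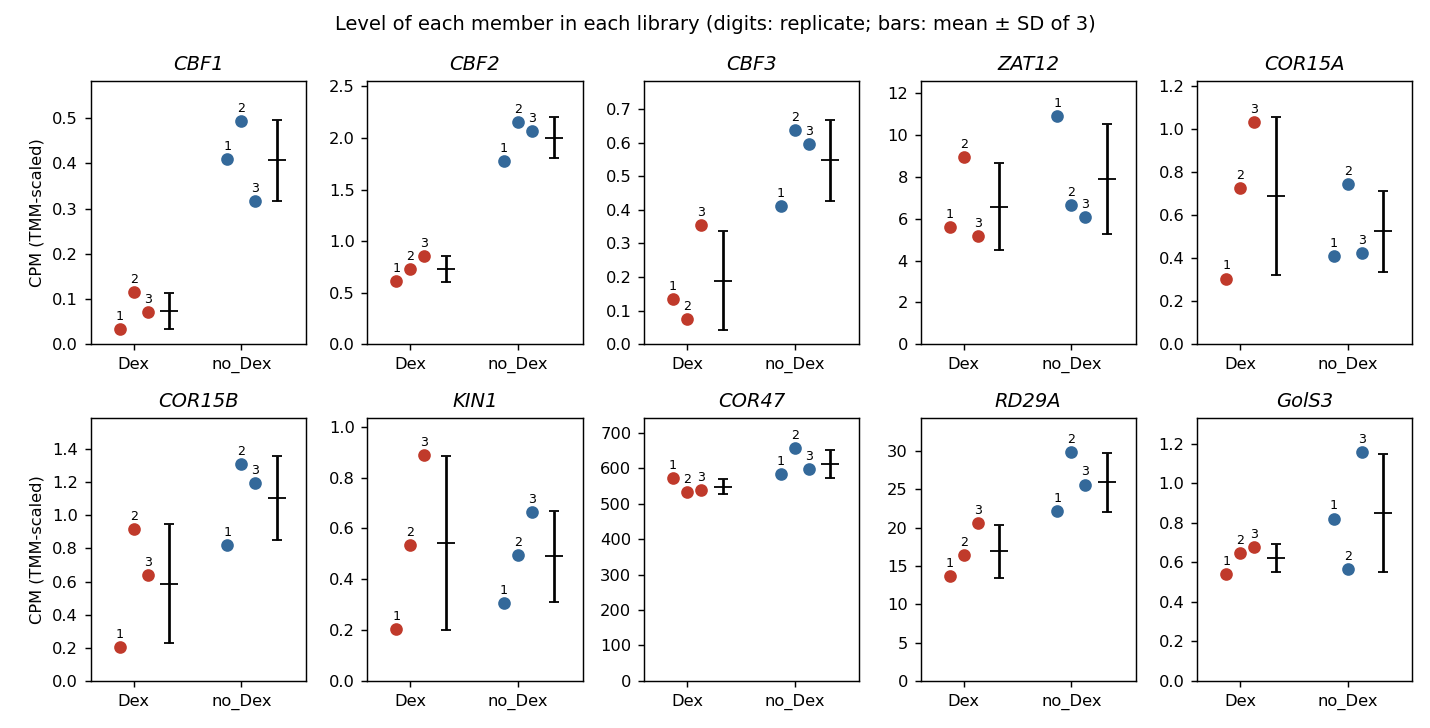
TMM-scaled CPM of the 10 members, 1 panel each with its own linear axis from 0; points are single libraries with their replicate number, Dex left and no_Dex right, and the bar beside each group is its mean ± SD (n = 3). CBF1, CBF2, CBF3, COR47 and RD29A have no overlap between groups.

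Levels between genes were compared as CPM per kilobase of gene model. COR47, a dehydrin, was the most abundant member, at 450 ± 17.3 in Dex libraries and 503 ± 31.9 in no_Dex libraries, rank 171 of the 33602 models over all 6 libraries. ZAT12 (8.07 ± 2.55 in Dex, 9.67 ± 3.24 in no_Dex) and RD29A (6.77 ± 1.38 in Dex, 10.4 ± 1.53 in no_Dex) came next and were not separated beyond their spread in either group. The other 7 ranked between 18993 and 21802. Among them CBF2 was the highest in no_Dex libraries, at 2.12 ± 0.209, ahead of COR15B at 1.70 ± 0.389, with overlapping SDs. In Dex libraries KIN1 (0.988 ± 0.626), COR15A (0.911 ± 0.484), COR15B (0.899 ± 0.551) and CBF2 (0.773 ± 0.130) were not separated beyond their spread. CBF1 had the lowest mean in both groups, at 0.0774 ± 0.0427 in Dex libraries and 0.430 ± 0.0947 in no_Dex libraries. CBF3 came next above it, at 0.208 ± 0.162 in Dex and 0.603 ± 0.133 in no_Dex. CBF1 and CBF3 were not separated beyond their spread in either group, nor were CBF3 and GolS3 (0.652 ± 0.228) in no_Dex.

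The CBF genes lie in a tandem row on the minus strand of chromosome 4, with CBF2 (AT4G25470, 13015250 to 13016235), CBF3 (AT4G25480, 13018010 to 13019400) and CBF1 (AT4G25490, 13021780 to 13022996) separated by 1774 and 2379 bases. CBF2, the most abundant of the trio, held 18, 19 and 24 pairs in Dex replicates 1 to 3, against 52, 61 and 59 pairs in no_Dex replicates 1 to 3. Every Dex value lay below every no_Dex value, and the Dex level was 0.730 ± 0.123 CPM against 2.002 ± 0.197 CPM in no_Dex (SD, n = 3 each). CBF2 fell by 1.45 on the log2 scale (edgeR, SE 0.20, adjusted p = 0.00308), and was lower in each of the 3 pairs of libraries with the same number. Over the 12 alternatives in which CBF2 was tested its log2 fold change lay between -1.58 and -1.33 and its adjusted p between 0.000146 and 0.0213.

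CBF3, also called DREB1A, held 4, 2 and 10 pairs in Dex replicates 1 to 3, against 12, 18 and 17 pairs in no_Dex replicates 1 to 3. The groups did not overlap, but Dex replicate 3 came close to no_Dex replicate 1. CBF3 averaged 0.189 ± 0.147 CPM in Dex and 0.548 ± 0.120 CPM in no_Dex (SD, n = 3 each), a log2 fold change of -1.50 (SE 0.48) that was not called (edgeR adjusted p = 0.0740). Without Dex replicate 3, its highest Dex library and the one with most seed-marker pairs, the value was -2.30 (edgeR adjusted p = 0.0262), and without Dex replicate 2, its lowest, it was -1.15 (edgeR adjusted p = 0.183). CBF3 passed the filter mainly through no_Dex libraries. Without Dex replicate 3 it passed only through them, so that call was not independent of its no_Dex level. Over its 12 alternatives the adjusted p ran to 0.207.

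CBF1 held 1, 3 and 2 pairs in Dex replicates 1 to 3, against 12, 14 and 9 pairs in no_Dex replicates 1 to 3. Every Dex library lay below every no_Dex library, at counts where single pairs matter. Summed over libraries the ratio of Dex to no_Dex, scaled by TMM, was 0.176 (exact 95% interval 0.0605 to 0.423), an interval that covers counting error only. CBF1 was left out of the test by the filter. With no filter its log2 fold change was -2.43 and the edgeR adjusted p was 0.0160. It reached the filter level in 2 no_Dex libraries and in no Dex library, so a filtered fit admits it only through the group where it is high. The other 5 fits that tested it (single reads, and without Dex replicate 1, 2 or 3 or no_Dex replicate 3; adjusted p of 0.0119 to 0.0413) were thus not independent of its no_Dex level.

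Summed, the CBF trio stood at 0.779, 0.916 and 1.28 CPM in Dex replicates 1 to 3 and at 2.60, 3.29 and 2.98 CPM in no_Dex replicates 1 to 3. The groups did not overlap, with 0.992 ± 0.260 CPM in Dex and 2.96 ± 0.344 CPM in no_Dex (SD, n = 3 each). CBF2 made up 78.3%, 79.2% and 66.7% of the trio's pairs in Dex replicates 1 to 3 and 68.4%, 65.6% and 69.4% in no_Dex replicates 1 to 3. These shares overlapped, and the exact Clopper-Pearson 95% interval in Dex replicate 1 ran from 56.3% to 92.5%, so a difference in the makeup of the trio was not detectable at this depth.

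The trio's coding sequences are alike, which bears on how pairs were assigned. CBF1 and CBF2 were identical at 87.5% of aligned coding bases with an unbroken run of 68 bases, and the other pairings at 87.3% and 87.5% with runs of 33. The longest stretch common to all 3 is shown, a part whose bases alone do not tell the 3 genes apart. In CBF2 it spans coding bases 19 to 48, at chr4:13016039-13016068 (minus strand).
CBF1, CBF2 and CBF3: ttttctgaaatgtttggctccgattacgag
Reads that matched several models equally well were removed by the authors, per the file headers, so the counts of all 3 genes rest on the parts that differ. In the TAIR10.1 annotation CBF3 also overlaps AT4G07385 on the opposite strand, and the libraries were not stranded.

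ZAT12 (AT5G59820, chromosome 5, 24102814 to 24103794, plus strand) held 166, 235 and 145 pairs in Dex replicates 1 to 3, against 319, 189 and 173 pairs in no_Dex replicates 1 to 3. The groups overlapped, with the highest value in no_Dex replicate 1 and the next in Dex replicate 2. ZAT12 averaged 6.59 ± 2.08 CPM in Dex and 7.89 ± 2.64 CPM in no_Dex, a log2 fold change of -0.27 (edgeR, SE 0.27, adjusted p = 0.557). The sign rested on no_Dex replicate 1, without which the log2 fold change was 0.040. A difference in ZAT12 was not detectable beyond the spread between libraries.

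RD29A (AT5G52310, listed as LTI78 in the reference, chromosome 5, 21240717 to 21243644, plus strand) encodes a hydrophilic protein induced by cold, drought and abscisic acid. It held 406, 430 and 578 pairs in Dex replicates 1 to 3, against 650, 845 and 731 pairs in no_Dex replicates 1 to 3. Every Dex library was below every no_Dex library, and Dex replicate 3 was the highest of the Dex group. RD29A averaged 16.9 ± 3.44 CPM in Dex and 25.9 ± 3.82 CPM in no_Dex (SD, n = 3 each), and fell by 0.62 on the log2 scale (edgeR, SE 0.16, adjusted p = 0.0344). The call was lost without Dex replicate 2, no_Dex replicate 2 or no_Dex replicate 3 (adjusted p = 0.101, 0.132 and 0.0992). Blocked on replicate number, the adjusted p was 0.0107, and the sign held in all 13 alternatives, from -0.78 to -0.48.

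COR47 (AT1G20440, chromosome 1, 7084409 to 7086873, minus strand) held 16896, 13954 and 15159 pairs in Dex replicates 1 to 3, against 17055, 18588 and 17035 pairs in no_Dex replicates 1 to 3. After TMM scaling these were 572, 533 and 540 CPM in Dex and 584, 657 and 598 CPM in no_Dex, so the groups did not overlap, though they did before TMM scaling. The log2 fold change of -0.16 (SE 0.07) was not called (edgeR adjusted p = 0.166; 0.0578 to 0.436 over its 13 alternatives). For this gene counting error is small, with a ratio of summed pairs of 0.897 (exact 95% interval 0.885 to 0.908, counting error only), and the spread between libraries sets the precision.

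The chloroplast stromal proteins COR15A (AT2G42540, chromosome 2, 17710441 to 17712330) and COR15B (AT2G42530, 17708593 to 17710433) are encoded next to each other on the minus strand, 7 bases apart in the annotation. COR15A held 9, 19 and 29 pairs in Dex replicates 1 to 3, against 12, 21 and 12 pairs in no_Dex replicates 1 to 3. The groups overlapped, with the lowest and the highest value both in the Dex group. Its log2 fold change was 0.38 (edgeR, SE 0.45, adjusted p = 0.619), and -0.051 without Dex replicate 3. COR15B held 6, 24 and 18 pairs in Dex replicates 1 to 3, against 24, 37 and 34 pairs in no_Dex replicates 1 to 3. Dex replicate 1 was the lowest, and after scaling Dex replicate 2 lay above no_Dex replicate 1. The log2 fold change of COR15B was -0.93 (edgeR, SE 0.43, adjusted p = 0.188), and -0.51 without Dex replicate 1 (adjusted p = 0.248). The neighbours thus had opposite signs with neither called, and the difference between them was not tested. Their coding sequences were identical at 83.8% of aligned bases, and COR15B overlaps AT2G42520 on the opposite strand in the annotation, so its count is uncertain in these unstranded libraries.

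KIN1 (AT5G15960, chromosome 5, 5209717 to 5210826, plus strand), a small cold-induced hydrophilic protein, held 6, 14 and 25 pairs in Dex replicates 1 to 3, against 9, 14 and 19 pairs in no_Dex replicates 1 to 3. After scaling the no_Dex values lay within the range of the Dex values. Its log2 fold change was 0.14 (edgeR, SE 0.51, adjusted p = 0.885), and the sign turned without Dex replicate 3 (-0.43), without no_Dex replicate 1 (-0.11) and by limma-voom (-0.027). KIN1 shares 95% of its aligned coding bases with its neighbour KIN2, with a run of 58 bases, so the split between them is uncertain. KIN2 stood at 19.7 ± 7.37 CPM in Dex and 21.6 ± 2.43 CPM in no_Dex, and was not called (log2 fold change -0.13, SE 0.25; edgeR adjusted p = 0.773).

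GolS3 (AT1G09350, chromosome 1, 3019639 to 3021443, plus strand) is a galactinol synthase, which makes the galactosyl donor for raffinose. It held 16, 17 and 19 pairs in Dex replicates 1 to 3, against 24, 16 and 33 pairs in no_Dex replicates 1 to 3. The Dex values were close to each other, and no_Dex replicate 2 lay among them. Its log2 fold change of -0.45 (SE 0.30) was not called (edgeR adjusted p = 0.363; 0.213 to 0.785 over its 12 alternatives).

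**Figure D3:**
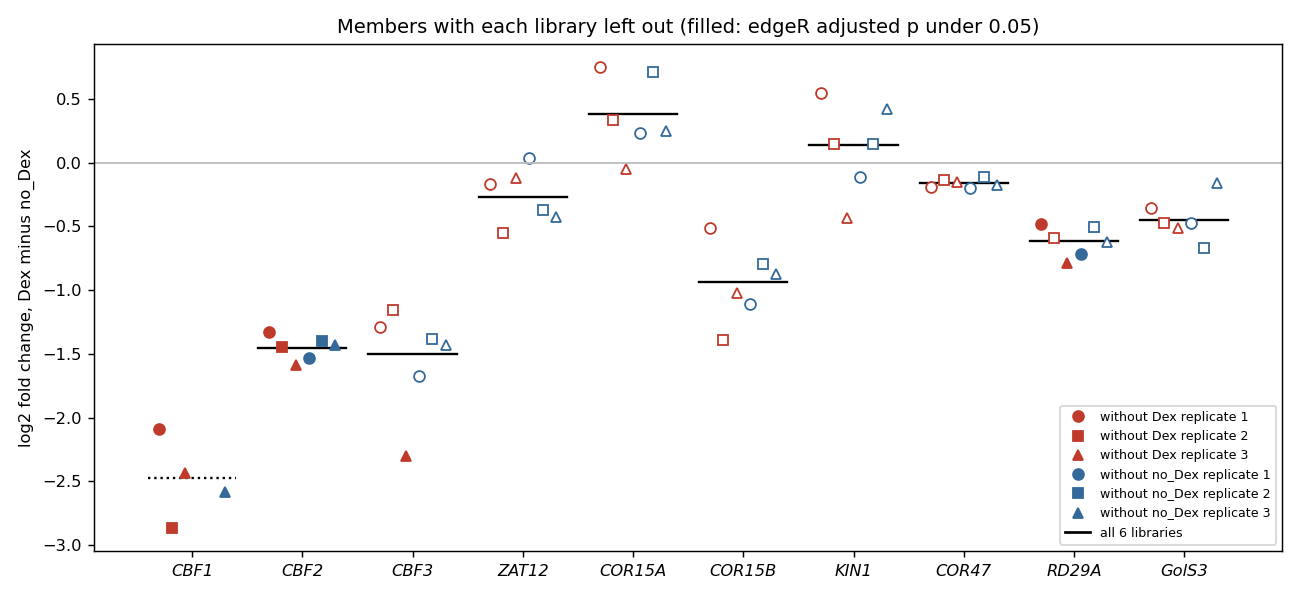
Log2 fold change (Dex minus no_Dex) of each member with 1 library left out at a time; solid lines give the fit with all 6 libraries, and the dotted line for CBF1, which the filter left out, the log2 ratio of mean CPM. Filled symbols have an edgeR adjusted p under 0.05: CBF2 is filled in all 6, CBF1 in the 4 that tested it, RD29A in 3, CBF3 without Dex replicate 3 alone, and symbols of ZAT12, COR15A and KIN1 lie on both sides of 0.

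COR15A and KIN1 were highest in Dex replicate 3, the library with most seed-marker pairs, and COR15B and RD29A were not. Genes of this kind are also known from ripening seeds. The 2 abscisic acid markers RAB18 and RD29B, too low to be tested, were also highest in Dex replicate 3. RAB18, a dehydrin, held 1, 4 and 97 pairs in Dex replicates 1 to 3, against 8, 7 and 1 pairs in no_Dex replicates 1 to 3. RD29B held 16, 3 and 30 pairs in Dex replicates 1 to 3, against 2, 5 and 2 pairs in no_Dex replicates 1 to 3. CRA1 held 17, 55 and 1056 pairs in Dex replicates 1 to 3, against 0, 1 and 5 pairs in no_Dex replicates 1 to 3, and OLEO1 held 2, 3 and 60 pairs in Dex against 0, 1 and 0 pairs in no_Dex. SESA3 held 53 pairs in Dex replicate 3, was at 0 in the other Dex libraries, and held 1 pair in no_Dex replicate 1 and 0 in the others. Without Dex replicate 3 the log2 fold changes of CBF2, RD29A and CBF1 were -1.58, -0.78 and -2.43. A part of seed material in the levels of any member was not tested.

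**Figure D4:**
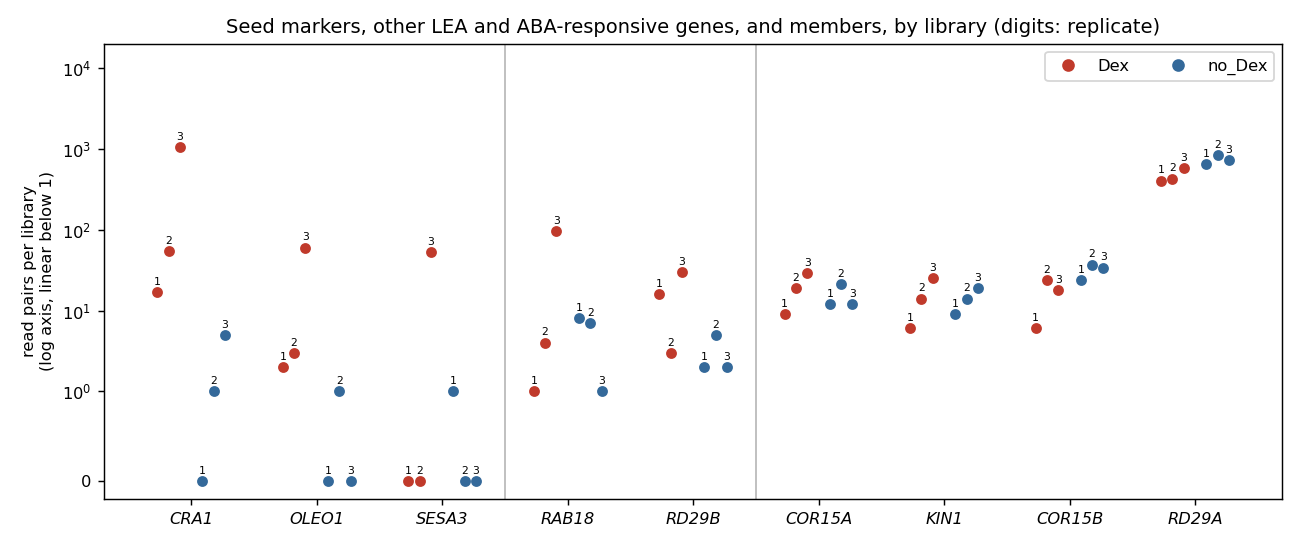
Read pairs per library (log axis, linear below 1) of 3 seed markers, of RAB18 and RD29B, and of 4 members, with Dex libraries left and no_Dex libraries right within each gene and digits for the replicate. Dex replicate 3 is the highest library for the seed markers, RAB18, RD29B, COR15A and KIN1, but not for COR15B or RD29A.

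Of 69 other genes of the cold pathway 62 were tested, and 4 rose, 13 fell and 45 were not called. They were listed for their role, with earlier results of these data known. The share called, 27.4% beside 14.4% of all tested genes, is thus a description only. The median log2 fold change of the 62 was -0.15, beside 0.01 over all tested genes. Without no_Dex replicate 2 the counts were 2 higher and 6 lower, without no_Dex replicate 3 there were 1 higher and 6 lower, and leaving out Dex replicate 2 gave 7 lower. Blocked on replicate number, 5 were higher and 16 lower, with 4 activators and 3 repressors among the lower.

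**Figure D5:**
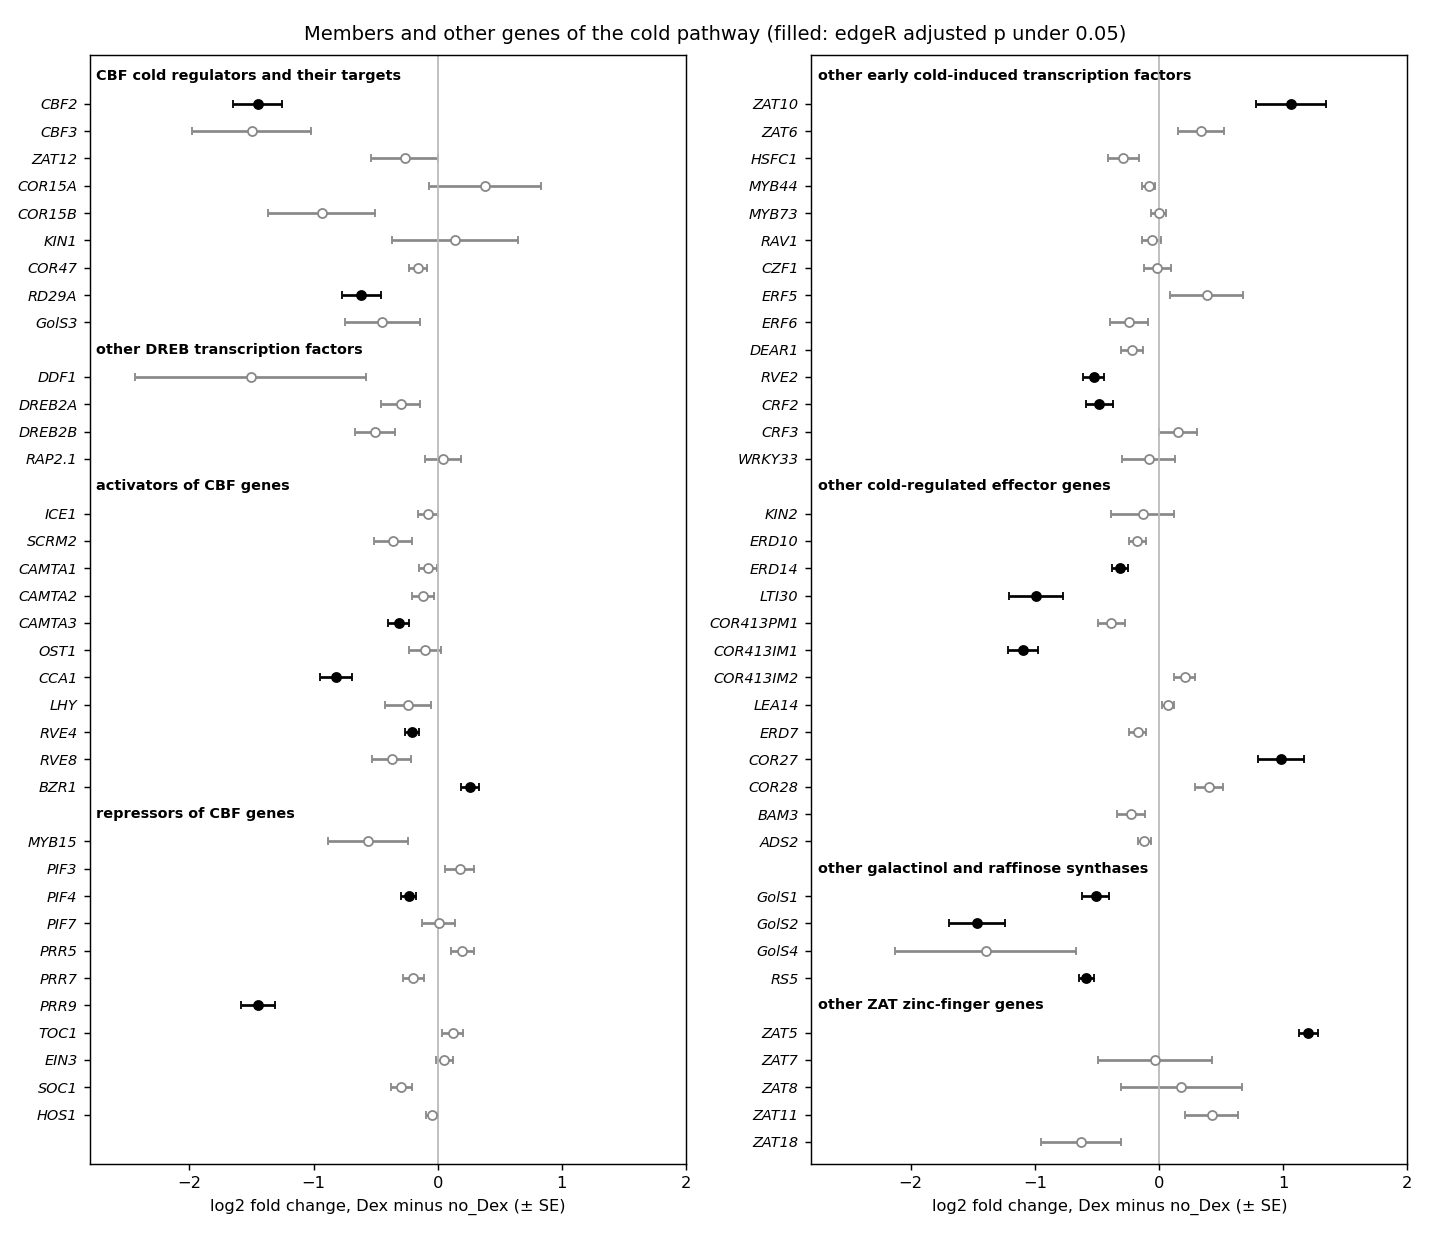
Log2 fold change (Dex minus no_Dex) with its SE for the tested members and the 62 other tested genes of the cold pathway, by list; filled points have an edgeR adjusted p under 0.05. The filled points left of 0 include CBF2, RD29A, PRR9, GolS2 and COR413IM1, and those right of 0 ZAT5, ZAT10, COR27 and BZR1.

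Of 11 activators of CBF genes 3 fell, 1 rose and 7 were not called, with a median of -0.21. CCA1, a MYB protein of the morning clock, held 69, 69 and 77 pairs in Dex replicates 1 to 3, against 140, 117 and 133 pairs in no_Dex replicates 1 to 3. It fell by 0.82 on the log2 scale (edgeR, SE 0.13, adjusted p = 0.00584, and at most 0.0308 over its 13 alternatives). The calmodulin-binding activator CAMTA3 fell by 0.31 (SE 0.08; adjusted p = 0.0414) and the CCA1 relative RVE4 fell by 0.21 (SE 0.06; adjusted p = 0.0494). BZR1, a brassinosteroid factor, rose by 0.26 (SE 0.07; adjusted p = 0.0448). RVE4 also lost its call with no filter, by DESeq2 and by limma-voom (0.0516 to 0.0770). The CAMTA3 and RVE4 calls were lost without Dex replicate 2 or 3 or any single no_Dex library (adjusted p of 0.0618 to 0.142 for CAMTA3 and 0.0913 to 0.144 for RVE4). The BZR1 call was lost without Dex replicate 2 or 3 or no_Dex replicate 2 or 3 (0.108 to 0.162), and with single reads (0.0513). With Dex replicate 2 or 3 or any 1 no_Dex library left out, 1 activator was called lower, and with Dex replicate 1 left out 4 were. ICE1, the bHLH factor that binds the CBF3 promoter, had a log2 fold change of -0.08 (SE 0.08; adjusted p = 0.544).

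Of 11 repressors of CBF genes 2 fell and 9 were not called, with a median of -0.05. PRR9, a pseudo-response regulator of the clock, held 73, 49 and 60 pairs in Dex replicates 1 to 3, against 180, 166 and 163 pairs in no_Dex replicates 1 to 3. It fell by 1.45 on the log2 scale (edgeR, SE 0.13, adjusted p = 0.000655, and at most 0.00635 over its 13 alternatives). PIF4, a phytochrome-interacting factor, fell by 0.23 (SE 0.06; adjusted p = 0.0331), a call lost without Dex replicate 2 or 3 or any single no_Dex library (0.0720 to 0.0970). With any 1 of those 5 libraries left out 1 repressor was lower, and without Dex replicate 1 there were 4 lower and 1 higher. The other clock repressors PRR5, PRR7 and TOC1 had log2 fold changes of 0.20, -0.20 and 0.12 and were not called.

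Among 14 other transcription factors that the cold induces early, 1 rose, 2 fell and 11 were not called, with a median of -0.07. ZAT10, a zinc-finger relative of ZAT12, held 1044, 939 and 734 pairs in Dex replicates 1 to 3, against 690, 368 and 282 pairs in no_Dex replicates 1 to 3. It rose by 1.06 on the log2 scale (edgeR, SE 0.28, adjusted p = 0.0408), a call lost by the DESeq2 Wald test (0.0514) and without Dex replicate 2, no_Dex replicate 2 or no_Dex replicate 3 (0.112, 0.152 and 0.104). The clock-related MYB gene RVE2 fell by 0.53 (SE 0.09; adjusted p = 0.00615) and the cytokinin response factor CRF2 fell by 0.48 (SE 0.11; adjusted p = 0.0217). The CRF2 call was lost without no_Dex replicate 2 or 3 (0.0938 and 0.0873), which left 1 gene of the list lower. Without no_Dex replicate 1, 2 genes of the list were higher.

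Of 5 other ZAT genes ZAT5 rose and 4 were not called. ZAT5 held 1261, 1133 and 1202 pairs in Dex replicates 1 to 3, against 605, 484 and 516 pairs in no_Dex replicates 1 to 3, and rose by 1.20 on the log2 scale (edgeR, SE 0.08, adjusted p = 0.000150). Of the 6 other DREB factors 4 were tested and none was called by edgeR, DESeq2 or limma-voom, with 1 lower at an unadjusted p under 0.05 by edgeR. Without Dex replicate 1, 1 of them was lower. DREB2B, a drought-related relative of the CBF genes, had a log2 fold change of -0.50 (SE 0.16; adjusted p = 0.0733). CBF4 held at most 6 pairs and DDF2 at most 14 in any library, and neither was tested.

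Of 15 other cold-regulated effector genes 13 were tested, and 1 rose, 3 fell and 9 were not called, with a median of -0.17. COR413IM1, a chloroplast inner membrane protein, held 392, 484 and 465 pairs in Dex replicates 1 to 3, against 925, 1059 and 964 pairs in no_Dex replicates 1 to 3. It fell by 1.09 on the log2 scale (edgeR, SE 0.12, adjusted p = 0.00121, and at most 0.0103 over its 13 alternatives). The dehydrin LTI30 fell by 0.99 (SE 0.22; adjusted p = 0.0206), and the dehydrin ERD14 fell by 0.32 (SE 0.06; adjusted p = 0.0147). LTI30 lost its call without Dex replicate 2, no_Dex replicate 2 or no_Dex replicate 3 (0.0696 to 0.0746), and ERD14 also without Dex replicate 3 (0.0587 to 0.0733 over the 4). COR27, a cold and clock regulated gene, rose by 0.98 (SE 0.19; adjusted p = 0.0115), a call lost without no_Dex replicate 1 or 3 (0.0553 and 0.0564). Without Dex replicate 2, no_Dex replicate 2 or no_Dex replicate 3, 1 effector was lower, and without any single Dex library 2 were higher. Without no_Dex replicate 1 or 3 none was higher, and DESeq2, the replicate block, single reads and no filter each gave 2.

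Of 7 other galactinol and raffinose synthases 4 were tested, and 3 fell and 1 was not called, with a median of -0.99. GolS2, the sister of GolS3, held 22, 16 and 27 pairs in Dex replicates 1 to 3, against 73, 52 and 60 pairs in no_Dex replicates 1 to 3. It fell by 1.47 on the log2 scale (edgeR, SE 0.22, adjusted p = 0.00490, and at most 0.0242 over its 12 alternatives). The raffinose synthase RS5 stood at 42.0 ± 2.42 CPM in Dex and 63.0 ± 2.11 CPM in no_Dex and fell by 0.58 (SE 0.06; adjusted p = 0.000980). GolS1 fell by 0.51 (SE 0.11; adjusted p = 0.0179), a call lost without Dex replicate 2 or any single no_Dex library (0.0604 to 0.0707). GolS3 shares 83.3% of its aligned coding bases with GolS2 and 74.2% with GolS1.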

How the data were processed

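Per the labels' protocols, unstranded TruSeq libraries were made from the polyA fraction of 10 µg of RNA and read as paired ends. Per the submitters' processing notes, reads were aligned with Bowtie2 to TAIR10, with no version given. Per the file headers, each deposited count is the number of properly placed read pairs of a gene model, not normalized, beside counts of single reads; reads with equally good matches elsewhere were removed. A further deposited column, of the unit other, is the model length in bases.

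All later steps were run for this text. In R 4.3.3, edgeR 4.0.16 filtered models (filterByExpr, minimum count 10, minimum total 15), scaled by TMM and tested Dex against no_Dex over 21344 models. The SE is the log2 fold change over the root of the quasi-likelihood F. Alternatives used DESeq2 1.42.0, limma 3.58.1, other filters, single reads, the replicate block and each library left out. The test was tried on simulated counts with the same spread for every gene, and with changes set only in genes above a minimum mean count. Genes as low as CBF1 and CBF3 were not among those changed. The files carry no coordinates: positions and sequences are from RefSeq's TAIR10.1 assembly, whose annotation holds 32835 of the models' locus codes.

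The members and lists were chosen with earlier results of these data known. Named genes are the members, CUC2, the reference genes, the genes of like pattern and, per other list, up to 4 called genes with the smallest p. ICE1, KIN2, ERD10, CRA1, SESA3, OLEO1, DREB2B, PRR5, PRR7, TOC1, CBF4, DDF2, RAB18, RD29B and GolS4 were named outside this rule after their values were seen. Deviations from group means correlated at 0.171, 0.119 and 0.125 between libraries of the same replicate number and at most at 0.0177 otherwise. Libraries of the same number were thus more alike, though the labels state no pairing. Deviations cancel within a group, so positive correlations at matching numbers push the others down, and pairing was not tested. The series' text calls the replicates biological; the labels name no separate cultures, and p-values measure the spread between these libraries.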

Additional observations from a re-analysis of the deposited data

How the results depend on the processing

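CBF2 was called lower in each of the 12 alternatives that tested it. CBF1 entered filtered fits only through its no_Dex libraries, as did CBF3 without Dex replicate 3. Those calls were not independent of the no_Dex levels of CBF1 and CBF3. With the replicate block 0 members were higher and 2 lower, the counts of the unpaired fit, and no member's call changed under it; other pathway genes numbered 5 higher and 16 lower under the block, and all genes 1604 higher and 2146 lower. Members lower numbered 1 with at least 1 CPM required in all libraries, a filter that left 3 members, and 1 to 4 with single libraries left out; members higher numbered 0 to 0. Other pathway genes ranged over 1 to 6 higher and 6 to 18 lower, and all genes over 519 to 2339 higher and 785 to 2726 lower. With single libraries left out the log2 fold change ran over -0.55 to 0.040 for ZAT12 (sign turned without no_Dex replicate 1), -0.051 to 0.75 for COR15A (turned without Dex replicate 3) and -0.43 to 0.55 for KIN1 (turned without Dex replicate 3, and at -0.11 without no_Dex replicate 1), and KIN1 was at -0.027 by limma-voom; none of these was called, and beyond the fewer libraries the cause was not tested. COR47 values overlapped between groups before TMM scaling. The ratio of summed pairs has an interval from counting error alone. For COR15A, KIN1 and GolS3 it includes 1 (0.864 to 1.97, 0.706 to 1.72 and 0.502 to 1.06). For CBF3 and COR15B, which were not called, it does not (0.185 to 0.628 and 0.359 to 0.741). The same holds for ZAT12 and COR47, also not called (0.734 to 0.922 and 0.885 to 0.908). The groups of ZAT12 overlapped, and the interval does not cover the spread between libraries. With 3 libraries against 3 an exact permutation test of 1 gene cannot go below 0.1.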

Other observations

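Genes whose pattern over the 6 libraries was most like that of the tested CBF genes were found by the root mean square difference between log2 CPM profiles centred on their own mean, over 18686 genes with a mean log2 CPM of at least 1. The nearest to the mean of CBF2 and CBF3 were AT2G30540, annotated as a thioredoxin superfamily protein (difference 0.169), AT1G32970, a subtilisin-like endopeptidase (0.179), and AT5G45670, a GDSL-like lipase (0.181). AT1G32970 stood at 1.19 ± 0.170 CPM in Dex libraries and 3.34 ± 0.452 CPM in no_Dex libraries (SD, n = 3 each), and AT5G45670 at 25.4 ± 5.86 CPM in Dex and 59.9 ± 4.75 CPM in no_Dex. Their log2 fold changes were -1.19, -1.48 and -1.24, a direction that the choice by likeness to a lower profile fixes, so no test is given. Nearest to the mean of the 6 effector genes were the glutathione transferase GSTU20 (0.0593), AT5G41460 (0.0643) and AT2G28410 (0.0800) (log2 fold changes of -0.31, -0.34 and -0.27). All of the 6 but COR47 were lowest in Dex replicate 1, the library that stood apart. COR15A and COR15B had log2 fold changes of opposite sign, so this mean stands for no single effector. The measure describes likeness in these libraries only.

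Several members sit beside a relative on the same strand. COR47 lies 1029 bases from ERD10, another dehydrin, which stood at 210.2 ± 4.59 CPM in Dex and 237 ± 19.3 CPM in no_Dex with a log2 difference of -0.17 (edgeR, SE 0.07, adjusted p = 0.141), close to that of COR47 at -0.16 with neither called. RD29A lies 1185 bases from RD29B, whose Dex mean was 0.575 ± 0.478 CPM and no_Dex mean 0.105 ± 0.0620 CPM, too low to be tested. The difference between the genes of a pair was not tested.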
